A study of Mus musculus with 4 samples.

Results

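Immune cells were a small class of the fetal gonad in these data: 123 of 19387 cells carried at least 3 of the 7 genes Fcer1g, Tyrobp, C1qa, Csf1r, Ptprc, Lyz2 and Cd52 above 0 and no more than 1 of the 6 germ cell genes Dazl, Ddx4, Dnd1, Mael, Dppa5a and Mov10l1 above 0. Of these, 2 cells, both at E11.5, were called doublets (barcodes that may hold a pair of cells) and left out, so 121 cells are described, of which E11.5 gave 40, E12.5 gave 16, E13.5 gave 29 and E14.5 gave 36. The study profiled XX gonads, the future ovaries, of C57BL/6 mice by droplet single-cell RNA sequencing on 4 days of embryonic development, E11.5 to E14.5, the period in which female germ cells enter meiosis. The mice carried no stated mutation or treatment, the gonads were dissociated with TrypLE, a trypsin substitute, and the labels do not state how many embryos went into a library. Each stage is 1 library, so stage and library cannot be told apart, no difference has a replicate check, and no test was made. The comparison class was the other somatic cells, 13884 kept cells with at most 1 germ cell gene and fewer than 3 of 9 erythroid genes above 0.

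Immune cells of the early gonad come from blood-forming sites outside it, and macrophages are among the first to settle there. Tissue macrophages depend on the receptor Csf1r, engulf dying cells and break them down in lysosomes, and secrete C1q, the recognition molecule of the classical complement pathway, which is built from the chains C1qa, C1qb and C1qc. Neutrophils and their precursors make S100a8 and S100a9, the subunits of the calcium-binding protein calprotectin, together with enzymes and antimicrobial proteins packed into granules that appear in a set order during maturation. Mast cells keep proteases and histamine in granules of another kind.

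The rule is about any immune cell and the macrophage name fitted only some of them. C1qa was detected without S100a8 in 60 of the 121 cells (49.6%, exact Clopper-Pearson 95% interval 40.4 to 58.8), S100a8 without C1qa in 17 (14%, 8.40 to 21.5), both in 1 and neither in 43 (35.5%, 27.0 to 44.8). All 60 C1qa-only cells had UMIs of at least 3 of the 17 genes of a macrophage list, against 4 of the 17 S100a8-only cells, and all 17 S100a8-only cells had at least 3 of the 18 genes of a neutrophil and granule list, against 0 of the 60. UMIs are unique molecular identifiers, each counting 1 captured RNA molecule. C1qa and 6 other genes defined membership, and C1qa and S100a8 define the split, so these numbers describe the classes and test nothing.

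The immediate upstream sequences of genes that mark the 3 main kinds of cell are shown because these genes are at or near 0 in the other kinds. They are RefSeq stretches on build GRCm38.p6, each the 250 bases before the annotated start of the gene, 5′ to 3′ on the strand of the gene. C1qb lies at chr4:136886201-136886450 and C1qc at chr4:136892915-136893164, both on the minus strand. S100a8 lies at chr3:90668821-90669070 on the plus strand, S100a9 at chr3:90695722-90695971 and Cpa3 at chr3:20242182-20242431 on the minus strand. Capitals mark AGGAAGT, known from sites of the Ets factor Spi1 and reading as ACTTCCT on the other strand, or AGATAA, known from Gata factor sites and reading as TTATCT on the other strand.
C1qb: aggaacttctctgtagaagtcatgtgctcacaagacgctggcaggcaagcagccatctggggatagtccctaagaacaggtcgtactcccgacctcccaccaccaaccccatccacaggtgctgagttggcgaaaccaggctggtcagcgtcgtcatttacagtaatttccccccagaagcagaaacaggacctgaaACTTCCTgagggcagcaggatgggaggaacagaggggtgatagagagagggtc
C1qc: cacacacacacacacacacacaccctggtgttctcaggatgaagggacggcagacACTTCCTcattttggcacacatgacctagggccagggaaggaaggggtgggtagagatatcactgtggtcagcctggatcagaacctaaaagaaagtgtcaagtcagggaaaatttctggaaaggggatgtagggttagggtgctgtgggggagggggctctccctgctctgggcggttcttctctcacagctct
S100a8: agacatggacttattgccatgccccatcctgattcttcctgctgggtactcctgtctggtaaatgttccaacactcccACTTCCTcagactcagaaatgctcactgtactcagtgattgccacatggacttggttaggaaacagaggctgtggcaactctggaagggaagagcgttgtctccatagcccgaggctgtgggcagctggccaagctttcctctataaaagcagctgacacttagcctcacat
S100a9: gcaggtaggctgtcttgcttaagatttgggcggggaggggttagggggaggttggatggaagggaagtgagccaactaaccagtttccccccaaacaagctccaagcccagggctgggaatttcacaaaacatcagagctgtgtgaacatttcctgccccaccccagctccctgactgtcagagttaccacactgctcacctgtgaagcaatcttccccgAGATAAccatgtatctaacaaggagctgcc
Cpa3: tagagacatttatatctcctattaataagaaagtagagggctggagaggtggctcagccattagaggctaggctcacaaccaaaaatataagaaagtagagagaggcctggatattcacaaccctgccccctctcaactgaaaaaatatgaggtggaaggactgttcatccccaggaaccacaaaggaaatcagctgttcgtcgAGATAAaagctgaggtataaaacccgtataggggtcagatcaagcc
AGGAAGT was found once in each of C1qb, C1qc and S100a8 and AGATAA once in each of S100a9 and Cpa3. On either strand AGGAAGT occurs in 7.69% of the 32851 promoter stretches of the same length in the table and AGATAA in 9.99%. The motifs were chosen with the sequences in view, and a match is a description of the letters, not evidence of binding.

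The share of immune cells was lowest at E12.5. At E11.5 they made up 0.834% of the 4794 kept cells (exact 95% interval 0.597 to 1.13) and at E12.5 0.338% of 4737 (0.193 to 0.548). The E13.5 library had 0.611% of 4746 (0.410 to 0.876) and the E14.5 library 0.767% of 4693 (0.538 to 1.06). The E12.5 interval lies below that of E11.5 and overlaps those of E13.5 and, by a narrow margin, E14.5. Among somatic cells alone the shares were 0.921% of 4344, 0.404% of 3956, 0.758% of 3824 and 1.91% of 1881 cells (1.34 to 2.64 at E14.5). The E14.5 share stands above the others on this second denominator only, in a library where other somatic cells numbered 1845, against 3795 to 4304 in the other libraries. The intervals cover counting error only.

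**Figure D1:**
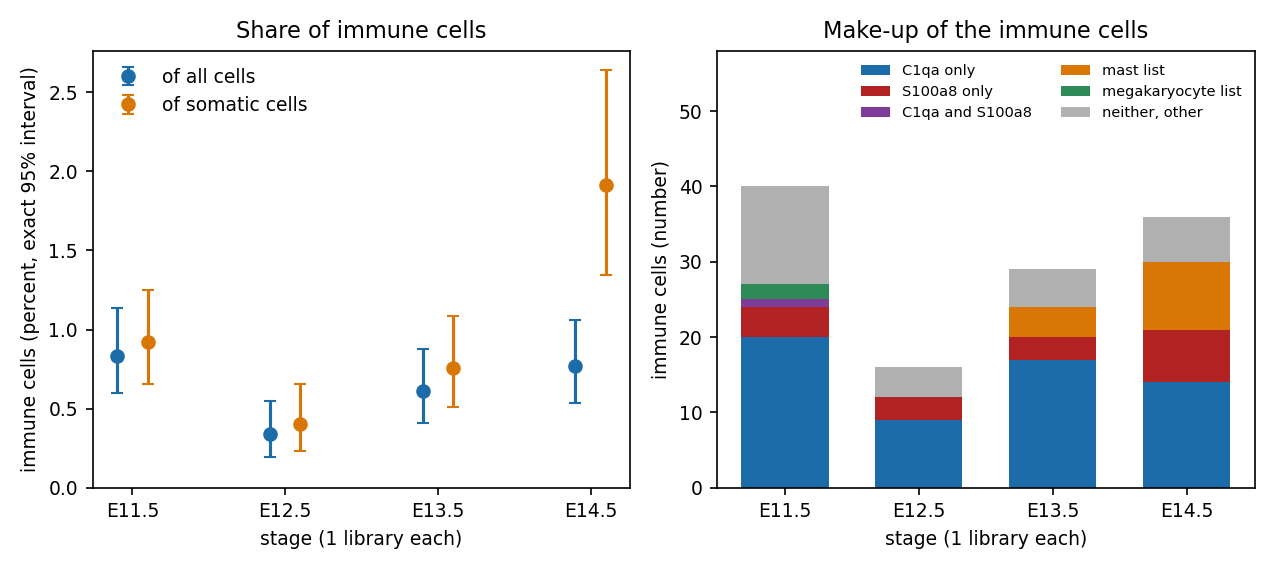
The left panel plots immune cells as a percent of all kept cells and of somatic cells at each stage, with exact 95% intervals; the right panel plots the number of immune cells by kind at each stage. The share of all kept cells runs from 0.338% at E12.5 to 0.834% at E11.5, and cells with mast genes number 0, 0, 4 and 9.

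The edge of the class was thin. Exactly 3 rule genes were found in 18 members, with 3 to 40 UMIs of rule genes a cell, whereas the 103 members with 4 or more had 6 to 545 and a median of 101. Just outside, 27 cells had exactly 2 rule genes, with 2 to 115 UMIs of them and a median of 2. The germ gene limit kept out another 17 cells with 3 or more rule genes, of which 8 had 2 germ cell genes and 9, all at E14.5, had 5 or 6.

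The 4 libraries held 4787 to 4916 cells, each with at least 5407 UMIs, and the median UMIs of a cell ranged from 11361 to 14258. Over 20% mitochondrial UMIs were found in 0 to 3 cells a library, and 94 to 120 cells a library were called doublets. A barcode was shared between libraries in 175 cases, of which 3 touch immune cells. Immune cells were deeper than other somatic cells at each stage, with median UMIs of 19888, 13747, 10997 and 10712.5 over the stages against 13749.5, 12129.5, 10425 and 9818. C1qa had a UMI in 65 and S100a8 in 356 of the 13884 other somatic cells (0.468% and 2.56%).

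The 3 chains of C1q were found together. C1qa, C1qb and C1qc were all detected in 59 of the 121 immune cells, at least 1 chain was detected in 70, and 9 had C1qb or C1qc without C1qa. In C1qa-only cells C1qa ranged from 1 to 72 UMIs with a median of 20, and 5 cells had fewer than 3. In S100a8-only cells S100a8 ranged from 14 to 1907 UMIs with a median of 769. The cell with both had 18 C1qa UMIs and 1 S100a8 UMI.

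**Figure D2:**
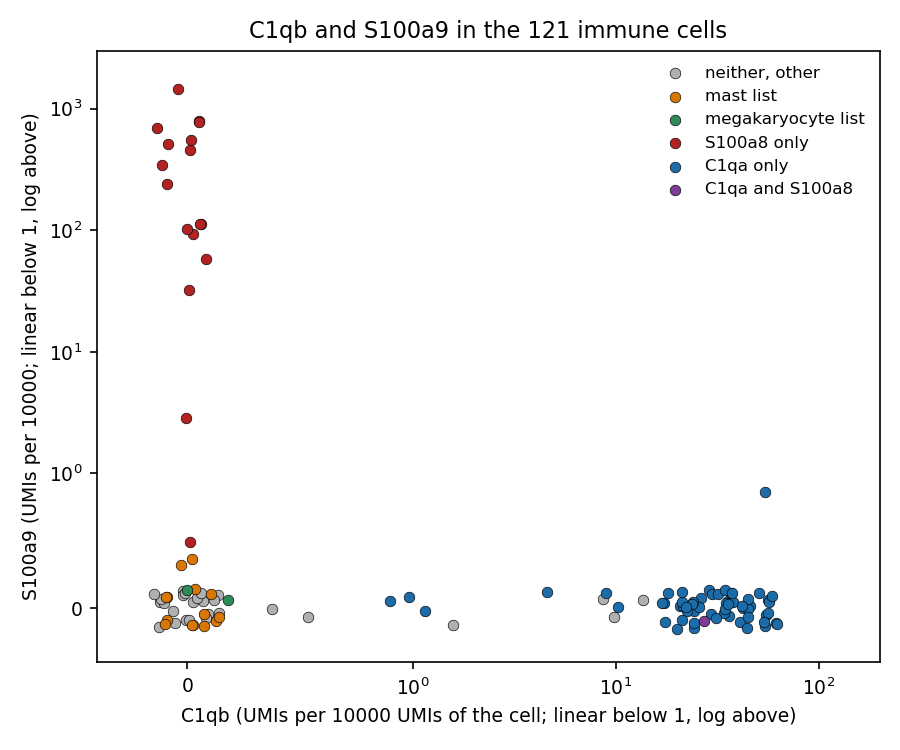
Each point is 1 of the 121 immune cells, with C1qb on the x axis and S100a9 on the y axis, both in UMIs per 10000 UMIs of the cell (linear below 1, log above) and coloured by kind; points at 0 are spread slightly. C1qa-only cells lie along the C1qb axis, S100a8-only cells along the S100a9 axis, and cells with mast genes at or near 0 on both.

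C1qa-only cells were next set against S100a8-only cells, with UMIs summed over each class and scaled to CPM, counts in every 1000000 UMIs of the class. A gene was taken as different when the classes differed 4-fold or more and their Poisson 95% intervals did not overlap. It also needed 30 UMIs over both classes, 100 CPM in the higher class, and UMIs in 5 cells there with no cell giving over 30% of them. This is a rule of size and not a test. Of 1578 genes past the minimums, 172 (10.9%) were higher and 59 (3.74%) lower in C1qa-only cells, with a median log2 ratio over all of them of 0.01. Of these 231 genes (14.6%), 230, 226, 229 and 228 had the same direction within the 4 libraries in order of stage. The genes were chosen on sums over these same cells, so a shared direction is largely built in. It is not a replicate check. S100a8-only cells numbered 4, 3, 3 and 7, so only the E14.5 library held at least 5 cells of each class. At E14.5 alone, 85 of 1211 genes were higher (7.02%) and 17 lower (1.4%), together 8.42%.

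Macrophage genes stood higher in C1qa-only cells as a whole list, all 15 of the 15 past the minimums, with a median log2 ratio of 5.49. The list holds C1qa, which defines the split, and Csf1r, a gene of the membership rule, so for these the values describe the choice of cells. C1qb reached 3074 CPM (2952 to 3201) against 0 UMIs, at least 333-fold higher when 0 is set to a floor of 3 UMIs over the class, and C1qc 2335 CPM against 0, at least 253-fold. Cx3cr1, the receptor of the chemokine fractalkine, reached 791 CPM against 0, at least 85.7-fold. Csf1r, the receptor for the macrophage growth factors Csf1 and Il34, stood at 611 against 6.15 CPM (log2 ratio 6.63, 95% interval 4.77 to 9.68, from 2 UMIs in S100a8-only cells). Trem2, a lipid-sensing receptor, stood at 405 against 3.08 CPM (7.04, 4.55 to 12.35, from 1 UMI), and Lgmn, a lysosomal protease, at 983 against 6.15 CPM (7.32, 5.46 to 10.37). Each was found widely, with UMIs in 54 of 60 cells for Csf1r, 55 for Trem2 and 58 for Lgmn.

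Genes of resident macrophages were higher too, 7 of 7 with a median log2 ratio of 4.86. They include Pf4, a chemokine made by macrophages and platelets, at 869 against 3.08 CPM (8.14, 5.66 to 13.45) and Mrc1, the mannose receptor, at 192 against 0 CPM (at least 20.7-fold). Dab2, an endocytic adaptor, stood at 592 against 12.3 CPM, the scavenger receptor Stab1 at 358 against 12.3, and the transcription factor Maf at 464 against 12.3. Lyve1 and Timd4, used to mark some resident macrophages, were almost silent, with 3 and 6 UMIs over the 60 cells.

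The lists for uptake and breakdown of cargo followed. Of 15 lysosome genes 11 were higher (median 2.73), among them the cathepsin Ctsb at 2569 against 117 CPM (log2 ratio 4.46) and Ctsd at 1357 against 123 CPM (3.46). The lysosomal membrane protein Cd63 stood at 523 against 662 CPM and did not pass. All 4 efferocytosis genes past the minimums, genes for the uptake of dying cells, were higher, and 7 of 9 lipid handling genes, led by the lipid carrier Apoe at 11865 against 148 CPM (6.33, 5.92 to 6.77). Of 7 haem and iron genes 6 were higher. Hmox1, which breaks down haem, stood at 573 against 21.5 CPM, the iron exporter Slc40a1 at 259 against 21.5, and the ferritin chain Fth1 at 8820 against 895.

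Chemokine ligands were higher as a list, 7 of 7 with a median log2 ratio of 4.92. Ccl3 and Ccl4, which attract monocytes and lymphocytes, stood at 665 against 58.5 CPM and at 510 against 0, Ccl12 at 279 against 0 and the neutrophil attractant Cxcl2 at 476 against 0. Dissociation response genes, known to be induced while tissue is digested, moved the same way: 7 of 8 were higher with a median of 3.08, including Fos at 1389 against 169 CPM. Their part in the chemokine values was not tested.

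The ITAM adaptors Tyrobp and Fcer1g, which couple receptors to signalling, are genes of the membership rule, so both classes were chosen to hold them. Tyrobp stood at 2115 against 902 CPM (1.23, 1.05 to 1.41) and Fcer1g at 2212 against 834 CPM (1.41, 1.22 to 1.60), both short of the 4-fold limit. Among myeloid transcription factors, Irf8 at 225 against 18.5 CPM, Irf5, Maf and Zeb2 were higher, and Cebpe, a regulator of granulocyte maturation, was lower at 1.30 against 542 CPM. Spi1, the master regulator of myeloid fate, stood at 456 against 329 CPM (0.47, 0.15 to 0.80). The actin regulator Coro1a at 826 against 886 CPM and the GTPase Rac2 at 497 against 862 CPM did not pass either. The growth factor Igf1 was found at 240 CPM in C1qa-only cells and at 0 in S100a8-only cells.

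Antigen presentation by MHC class II was hardly visible. H2-Aa, H2-Ab1 and the cytokine Il1b had 0 UMIs over the 60 C1qa-only cells, where 3 UMIs would equal 3.91 CPM. Cd74, the class II invariant chain, had 32 UMIs (41.7 CPM). Over all 121 immune cells at least 3 MHC class II genes were found in 2, at least 3 dendritic cell genes in 1, and at least 3 B cell or T, NK and innate lymphoid cell genes in 0.

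Genes of other gonadal cells were present at low level in some immune cells. At least 3 of 6 gonadal somatic genes, such as Wt1 and Gata4, were found in 10 of the 60 C1qa-only and 4 of the 17 S100a8-only cells, with summed levels of 181 and 243 CPM, against 1191 CPM in other somatic cells. When those cells were left out, 271 genes differed between C1qa-only and S100a8-only cells in place of 231, with 216 in common.

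The 17 S100a8-only cells carried granule genes in different combinations. In the comparison above, 10 of 12 neutrophil and granule genes past the minimums were lower in C1qa-only cells (median log2 ratio -8.81). They include S100a8, which defines the split. Camp and Ngp, proteins of late granules, summed to 8101 and 7172 CPM in S100a8-only cells against 0 UMIs in C1qa-only cells. Lcn2, an iron-scavenging granule protein, summed to 2926 CPM, and the early granule enzymes Mpo and Elane to 1902 and 1609 CPM, also against 0. Ctsg and Ltf missed the rule because 1 cell gave 32.6% and 38.5% of their UMIs. Stfa1, Stfa3, BC100530 and Gm5483, cystatin-like genes of 1 cluster with similar sequences, were high in the same direction, and their separate values are uncertain. Without the E11.5 library Lcn2, Ngp, Stfa1, Stfa3 and BC100530 missed the rule, and without the E14.5 library Mpo, Elane, Ngp and Stfa1 missed it. Ngp and Stfa1, Stfa3 and BC100530 also missed it when cells with gonadal somatic genes were left out, and Ngp without E13.5.

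Mpo, Elane, Prtn3 and Ctsg are enzymes of primary granules, made by early precursors, and Ngp, Ltf, Camp and Lcn2 belong to later granules. Of 7 cells at E14.5, the first had 258 Ngp, 401 Camp and 64 Lcn2 UMIs with 1 Mpo and 4 Elane. The sixth had 75 Mpo, 77 Elane, 73 Prtn3 and 87 Ctsg UMIs with 0 Ngp, 0 Camp and 0 Lcn2, and only 24 S100a8 UMIs. The fifth had 62 Mpo, 22 Elane, 84 Prtn3 and 21 Ctsg UMIs with 14 S100a8 UMIs. In these 3 cells early granule enzymes and late granule proteins were largely apart. The second cell held both, with 39 Mpo, 80 Elane and 80 Prtn3 UMIs beside 67 Camp and 10 Lcn2, and the third had 107 Mpo beside 8 Camp.

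Cells of the late kind were seen at each stage. The fourth cell at E11.5 had 1459 S100a8, 455 Ngp, 272 Camp and 49 Ltf UMIs with 0 Mpo and 0 Elane. The second cell at E12.5 had 628 Ngp, 384 Camp and 112 Ltf UMIs, and the second at E13.5 had 458 Ngp, 419 Camp and 43 Ltf UMIs, again with 0 Mpo and 0 Elane. The first cells at E11.5 and E12.5 held both kinds, with 83 and 60 Mpo beside 201 and 92 Camp UMIs. A few cells held S100a8 and S100a9 with 0 Ngp, 0 Camp and at most 1 Mpo UMI, and 6 or 7 macrophage list genes: the third cell at E11.5 had 769 S100a8 and 161 Lyz2 UMIs with 5 Prtn3, the third at E12.5 had 567 S100a8 and 273 Lyz2, and the fourth at E14.5 had 887 S100a8 and 165 Lyz2 with 7 Prtn3. Lyz2 encodes lysozyme, and reads of its close copy Lyz1 could be split between them.

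Retnlg, a gene of mature neutrophils, had 0 UMIs in all 17 cells, whereas Cebpe was found in 16. Top2a and Mki67, genes of cycling cells, were found in 16 and 13 of the 17, against 24 and 15 of the 60 C1qa-only cells. In summed counts Top2a stood at 169 CPM in C1qa-only and 231 CPM in S100a8-only cells (log2 ratio -0.45) and did not pass the rule. Over the stages S100a8 summed to 55069, 45288, 58630 and 32143 CPM and Mpo to 897, 1012, 1535 and 3624 CPM in the 4, 3, 3 and 7 cells. With so few cells these are values only.

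**Figure D3:**
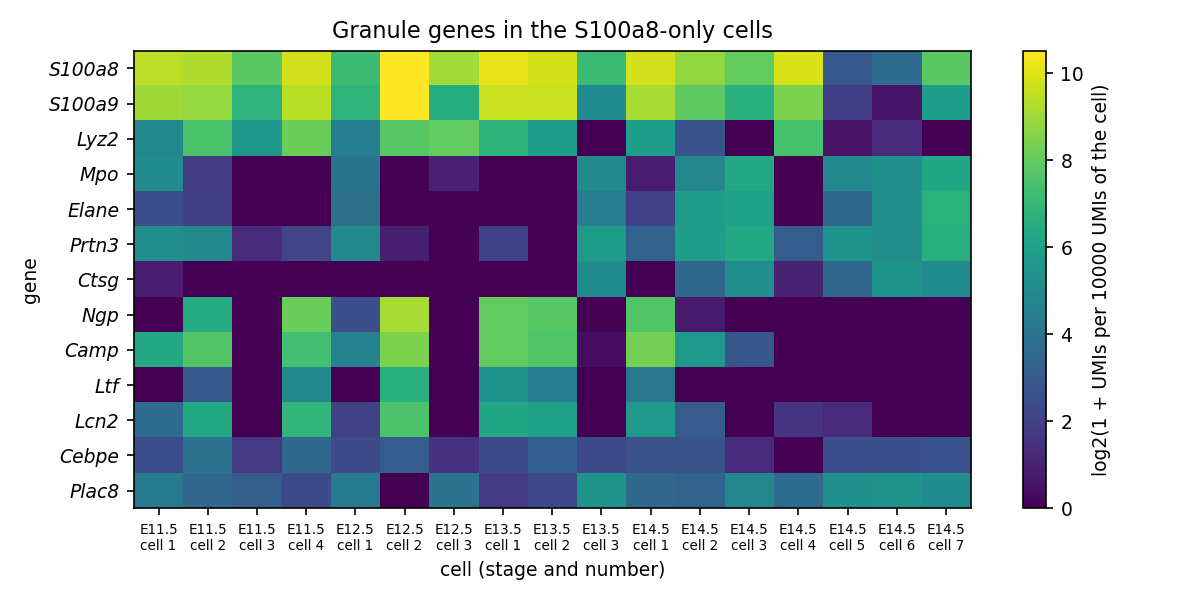
Columns are the 17 S100a8-only cells by stage and rows are genes of early and late granules; the colour is log2(1 + UMIs per 10000 UMIs of the cell). Cells with high Mpo, Elane and Ctsg mostly lack Ngp and Ltf, and S100a8 is lowest in 2 of the E14.5 cells.

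Among the 43 cells with neither gene, 13 had UMIs of at least 3 of the 7 mast and basophil genes in the table, 4 at E13.5 and 9 at E14.5. None were found among the 40 immune cells at E11.5 or the 16 at E12.5, which allows shares of up to 7.5% and 18.8% by a limit of 3 cells of the total. This set was drawn after values were seen. C1qa, S100a8, Csf1r and Lyz2 had 0 UMIs in all 13, which met the immune rule through genes such as Tyrobp and Fcer1g, each found in all 13. Asking for 4 of the genes left 4 and 9 cells, and asking for 5 left 3 and 8.

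Cpa3, a carboxypeptidase of mast cell granules, had 10, 27, 11 and 36 UMIs in the E13.5 cells and 104, 73, 52, 52, 17, 145, 178, 39 and 112 in the E14.5 cells. The ranges overlap only at the E14.5 cell with 17. Cma1, a chymase, had 0, 1, 3 and 1 UMIs at E13.5 and 88, 149, 205, 27, 19, 412, 33, 19 and 296 at E14.5, and here the ranges did not overlap. Tpsb2, a tryptase, had 0 UMIs in every E13.5 cell and 0, 35, 18, 1, 0, 23, 6, 0 and 59 at E14.5.

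In summed counts Gata2 and Kit, regulators of this lineage, were not higher at E14.5. Gata2, a transcription factor of progenitors and mast cells, had 30, 6, 5 and 4 UMIs in the E13.5 cells (462 CPM). It had 1 to 9 in the E14.5 cells (448 CPM). Most of the Gata2 sum at E13.5 came from the 1 cell with 30 UMIs, so the sums do not give the order for the other cells. Kit, the receptor for stem cell factor, had 4, 4, 7 and 5 UMIs in the E13.5 cells against 0 to 4 (205 and 131 CPM). Gata2, Kit, Hdc and the proteases above all belong to the list that drew these cells. Cells low in proteases could enter the set only through its other genes, so the contrast between stages is partly built in. Hdc, which makes histamine, had 3, 0, 14 and 47 UMIs against 0 to 32, and per total UMIs it was higher at E14.5, at 657 and 1493 CPM. The E13.5 cells had 14976 to 31300 UMIs and the E14.5 cells 8470 to 22659, so the higher protease counts at E14.5 stand in cells that were mostly shallower.

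Against the other 108 immune cells, the 13 cells were higher in 41 of 1585 genes (2.59%) and lower in 119 (7.51%), together 10.1%. Cpa3, Hdc and Kit are genes of the list that drew the cells, so their ratios describe the choice. Cpa3 stood at 4184 against 0.540 CPM (log2 ratio 12.92, from 1 UMI in the others) and Hdc at 1095 against 13 CPM (6.40). Il1rl1, the receptor for interleukin 33, stood at 269 against 1.62 CPM (7.38) and Kit at 166 against 6.48 CPM (4.68). The chemokine Ccl17 at 152 against 3.24 CPM (5.55) and the integrin chain Itgb7 at 220 against 10.3 CPM (4.42) were also among the 12 largest ratios, which were chosen after the set was seen, with Car8, Mpped2, Homer2, Fgl2, Pdlim1 and Gnb4. Outside the immune cells, Cpa3 had 0, 0, 2 and 122 UMIs in other somatic cells at the 4 stages, of which 110 came from 1 cell at E14.5.

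**Figure D4:**
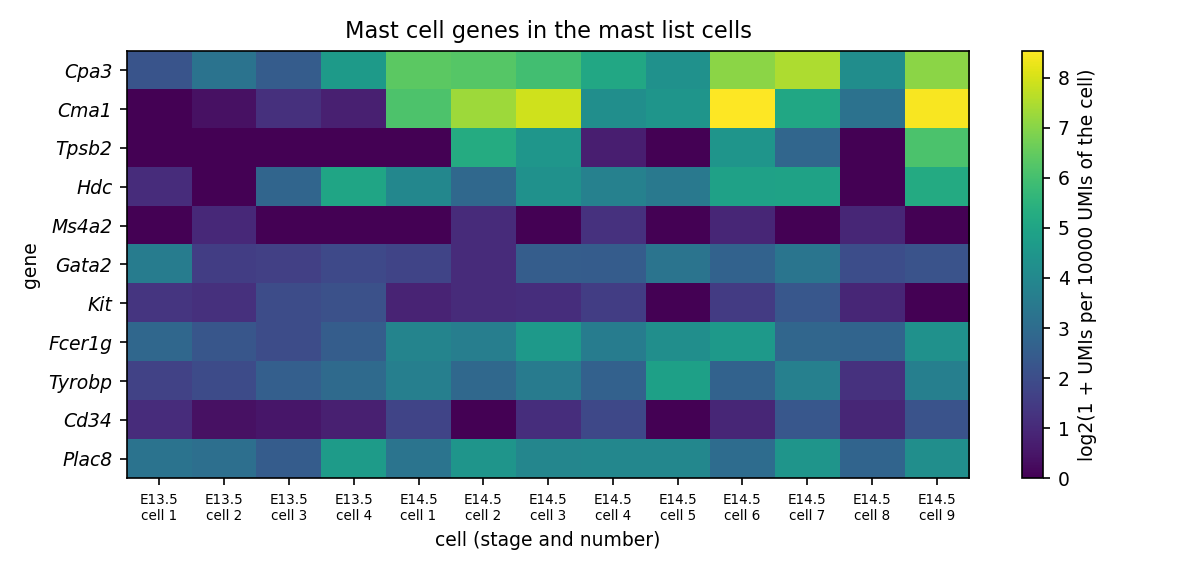
Columns are the 13 immune cells with at least 3 mast and basophil genes, by stage, and rows are genes; the colour is log2(1 + UMIs per 10000 UMIs of the cell). Cma1 has 0 to 3 UMIs in the 4 E13.5 cells and 19 to 412 in the 9 E14.5 cells, while Gata2 is present in every column.

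The remaining 30 cells with neither gene were mixed. At least 3 macrophage genes alone were found in 13, granule genes alone in 4, both lists in 4, megakaryocyte and platelet genes in 2 and no list in 7. The 4 cells with both lists and the 2 with megakaryocyte genes were all at E11.5. At least 3 of 10 stem and progenitor genes were found in 35 of the 43 cells with neither gene, mast cells included. They were found in 2 of 60 C1qa-only and 5 of 17 S100a8-only cells. Kit and Gata2 are in this list and in the mast and basophil list, so part of the count follows from how the mast cells were drawn.

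Some E11.5 cells of this group were large and carried early genes. A cell of 65105 UMIs had 55 Mpo, 83 Prtn3 and 27 Cd34 UMIs, a cell of 59519 had 48 Mpo, 21 Prtn3 and 22 Cd34, and a cell of 41157 had 49 Mpo, 44 Prtn3 and 16 Cd34, each with 0 Elane and 0 S100a8. Cd34 is a surface protein of progenitors and of endothelium. A megakaryocyte list cell of 27000 UMIs had 41 Pf4, 12 Itga2b and 8 Gp9 UMIs, genes of platelets and their precursors. Cells with neither gene at E11.5 had a median of 32435 UMIs, against 16578 in C1qa-only cells of that library. Their doublet scores were higher too, with a median of 0.145 against 0.0948, and the part of doublets in their mixed genes was not tested.

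Across the stages, the macrophage list as a whole was little different in C1qa-only cells between E11.5 and E14.5. In 20, 9, 17 and 14 cells from E11.5 to E14.5, C1qa summed to 1375, 1307, 2974 and 2178 CPM, C1qb to 2726, 2468, 4490 and 2692, and C1qc to 1898, 1793, 3557 and 2326. All 3 chains stood highest at E13.5. Of 15 macrophage genes only Ms4a7 was different at E14.5 against E11.5 by the rule of size (413 against 90.7 CPM), and the list had a median log2 ratio of -0.02. Csf1r stood at 671, 606, 688 and 392 CPM, Cx3cr1 at 668, 922, 1079 and 629, and Trem2 at 320, 120, 758 and 413. None of the 3 passed the rule at E14.5 against E11.5, the only stages compared by it, and Trem2 at E12.5 rests on 14 UMIs. All 7 resident macrophage genes past the minimums had lower values at E14.5 and 0 passed, with a median log2 ratio of -0.84, among them Pf4 (-1.44), F13a1 (-1.32) and Mrc1 (-1.16). The list of 10 summed to 3343, 3296, 2933 and 1670 CPM. Pf4 in other somatic cells stood at 76.1 CPM at E11.5 and 1.10 at E14.5.

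Few genes differed between the ends of the series: 9 of 1619 were higher at E14.5 (0.556%) and 19 lower (1.17%), together 1.73%, with a median log2 ratio of 0.02. In the other somatic cells of the same libraries 18 of 1580 were higher (1.14%) and 10 lower (0.633%), together 1.77%. None of 15 lysosome, 9 lipid handling, 7 haem and iron, 7 resident macrophage, 7 S phase, 5 complement or 4 Fc receptor genes passed. Apoe stood at 10533, 7028, 14799 and 15271 CPM and Spi1 at 496, 333, 554 and 352.

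Chemokine ligands were the list with the most genes lower at E14.5, 4 of 9 with a median log2 ratio of -1.68. Ccl3 summed to 846, 1153, 437 and 135 CPM (E14.5 against E11.5 -2.65, -3.38 to -1.99) and had UMIs in 18 of 20, 6 of 9, 13 of 17 and 8 of 14 cells. Per cell, its median was 8.37, 15.8, 3.39 and 0.959 UMIs per 10000. Cxcl2 summed to 532, 1435, 46.7 and 87.9 CPM (-2.60), Ccl12 to 399, 162, 286 and 94.7 (-2.08) and Ccl24, an eosinophil attractant, to 115, 51.2, 64.1 and 20.3 (-2.50). Ccl4, at 423, 871, 641 and 264 CPM, did not pass. The list together summed to 4440, 5610, 2886 and 1522 CPM.

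Genes of the dissociation response moved in part with them. Dusp1 stood at 402, 316, 484 and 94.7 CPM and Atf3 at 130, 478, 152 and 27.1, both lower at E14.5 by the rule, as 2 of 7 genes of that list, whose sum was 3515, 5645, 6268 and 2448 CPM. In other somatic cells Dusp1 stood at 99.4 CPM at E11.5 and 36.5 at E14.5 (log2 ratio -1.44), and Atf3 at 12.8 and 3.12 (-2.04). Both were under the 100 CPM minimum there, so the rule could not call them. In C1qa-only cells the log2 ratios were -2.09 for Dusp1 and -2.26 for Atf3. When both stages were held to a common minimum of 9791 UMIs a cell, which kept 19 and 8 cells, Ccl3 passed again, whereas Cxcl2, Ccl12, Ccl24 and Atf3 missed the rule. Dusp1 missed it with 3 UMIs asked of a positive cell and with cells of gonadal somatic or erythroid genes left out. Atf3 also missed it with the gonadal ones left out. Ccl12 also missed it with 3 UMIs asked of a positive cell, with the erythroid ones left out and with the mean of cells. The part of the digestion step in these levels was not tested.

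Genes of G2 and mitosis were higher at E14.5 for 2 of 6, with a median log2 ratio of 2.08. Top2a, the topoisomerase of dividing cells, stood at 51.4, 179, 175 and 419 CPM (3.03, 2.24 to 3.90), with UMIs in 4 of 20, 6 of 9, 6 of 17 and 8 of 14 cells, and Aurkb, a mitotic kinase, at 33.2, 59.8, 70.0 and 189 CPM (2.51). Cenpf and Nusap1, also of mitosis and in no list, were higher too (3.58 and 3.37). In other somatic cells Top2a stood at 140 CPM at E11.5 and 230 at E14.5, and Aurkb at 41.4 and 42.4. These calls rest on few cells. With the common minimum of 9791 UMIs none of the 4 genes passed. The list then summed to 554, 1178, 1492 and 1147 CPM in place of 544, 1178, 1085 and 1812. With 3 UMIs asked of a positive cell, Aurkb, Cenpf and Nusap1 missed the rule and the E14.5 sum was 1458 CPM. With cells of gonadal somatic genes left out, Aurkb and Cenpf missed it and that sum was 2120 CPM. Nusap1 missed it with 4 rule genes asked for, and Aurkb with doublets kept. With cells thinned to 5000 UMIs, Top2a was found in 5%, 55.6%, 29.4% and 50% of the cells.

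Emb, a cell surface protein, was lower at E14.5 at 184, 51.2, 35.0 and 27.1 CPM (-2.77), beside 8.80 and 1.39 CPM at E11.5 and E14.5 in other somatic cells (-2.66). The actin-binding Cnn2 was also lower in C1qa-only cells, at 305, 162, 140 and 47.3 CPM (-2.69), beside a log2 ratio of 0.37 in other somatic cells. Ppp1r15a, which acts in the stress response, stood at 178, 248, 105 and 27.1 CPM (-2.72), beside 36.2 and 29.6 CPM in other somatic cells at E11.5 and E14.5. These 3, with Ccl3, Hbb-y and Atp13a2, passed under each other choice of cells and of scale. With a minimum of 100 UMIs over both stages in place of 30, Emb, Ppp1r15a and Atp13a2 had too few to be counted, and 7 genes were lower and 1 higher.

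Between E11.5 and E14.5, globin RNA in these cells moved in the same direction as in other somatic cells, though not always by the same amount. The embryonic globin Hbb-y stood at 629, 529, 373 and 54.1 CPM in C1qa-only cells (-3.54, -4.77 to -2.53). In other somatic cells it stood at 700 and 211 CPM at E11.5 and E14.5 (-1.73). The adult globin Hbb-bs stood at 24.2, 17.1, 152 and 866 CPM (5.16), beside 27.5 and 1772 CPM in other somatic cells (6.01). Reads of Hbb-bs and its near copy Hbb-bt could be split between them. A single E14.5 cell had at least 3 erythroid genes, and without it the globin sum at E14.5 was 2035 CPM in place of 3530. Whether these RNAs were taken up, free or made in the cells was not tested.

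**Figure D5:**
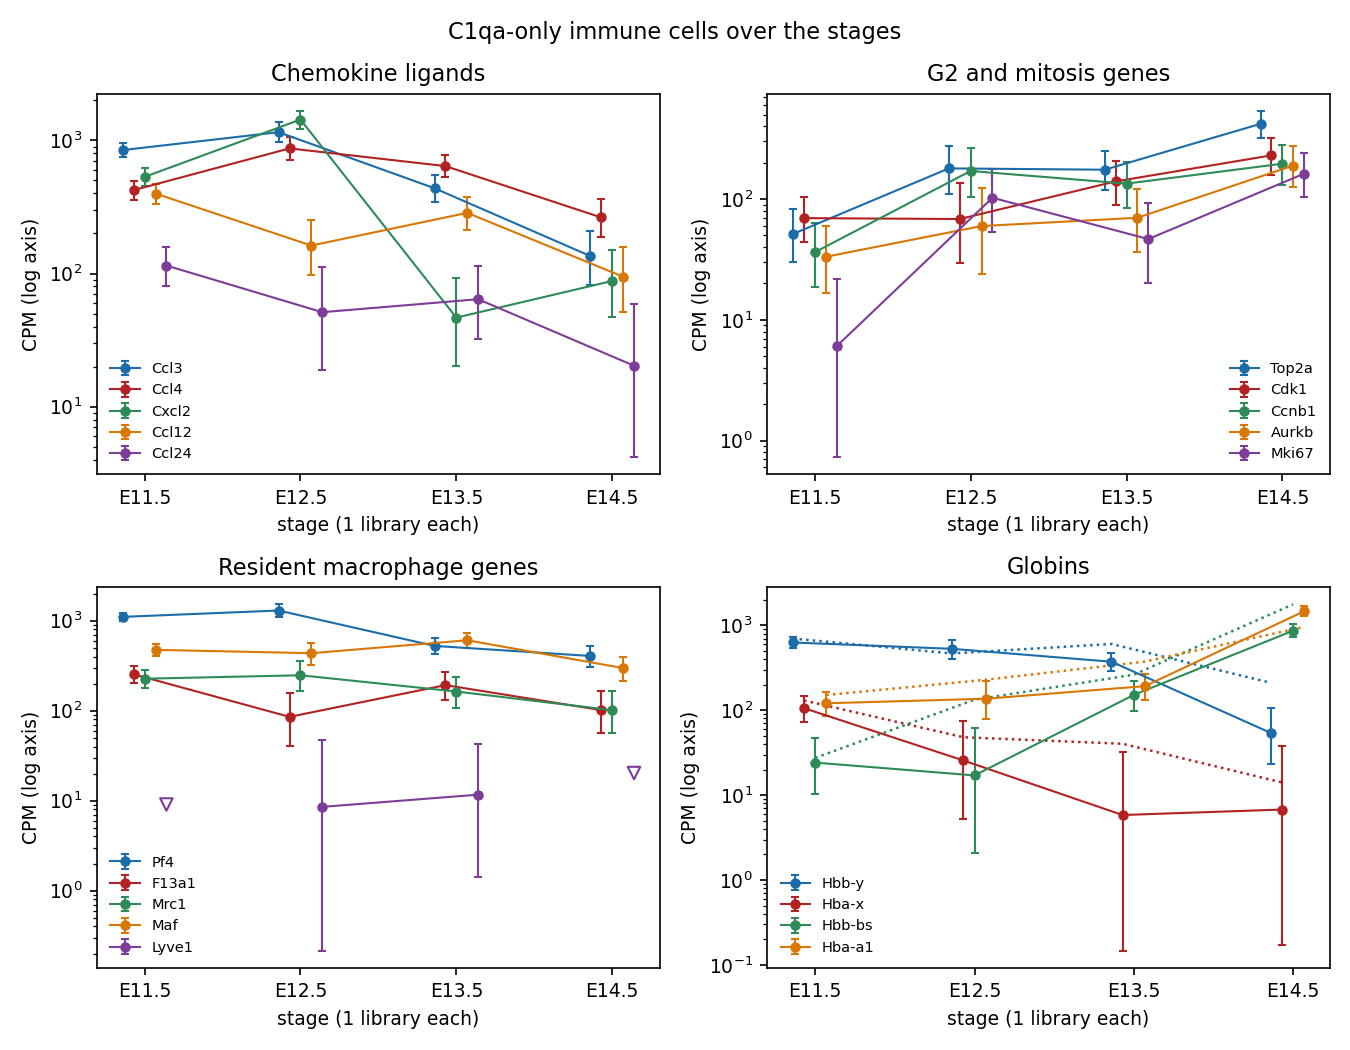
Points are CPM summed over the C1qa-only cells of each stage (20, 9, 17 and 14 cells), on log axes with exact Poisson 95% intervals, in panels by gene group. Dotted lines in the globin panel are other somatic cells, and open triangles mark what 3 UMIs would equal where there were 0. Ccl3 stands at 846 CPM at E11.5 and 135 at E14.5, Top2a at 51.4 and 419, and Hbb-y and Hbb-bs cross between E13.5 and E14.5.

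Set against the other somatic cells, the whole class had 158 of 1668 genes higher (9.47%) and 111 lower (6.65%), together 16.1%, with a median log2 ratio of -0.03. Membership was chosen on the same cells, so this is a description. All 11 macrophage genes past the minimums, 9 of 11 neutrophil and granule genes, 9 of 14 lysosome genes, 6 of 6 chemokine ligands and both MHC class I genes, among them B2m at 998 against 96.9 CPM, were higher. The lists for uptake and cargo stood out less here than in C1qa-only against S100a8-only cells. Of 3 efferocytosis genes 1 was higher and 1 lower (median log2 ratio -0.67). Only 2 of 6 lipid handling genes and 2 of 5 haem and iron genes were higher. All 5 supporting cell and all 4 gonadal somatic genes were lower. No gene of 7 for S phase or 5 for G2 and mitosis passed.

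Among the 10 genes in no list with the largest ratios, 4 were the cystatin-like genes named above (Stfa1 at 12.49, BC100530 at 12.14, Gm5483 at 12.13 and Stfa3 at 11.46). The others include Rgs1, a regulator of G protein signalling, at 103 against 0.0165 CPM (12.60), Ly86, a partner of a Toll-like receptor homologue, at 165 CPM with UMIs in 70 cells, and Fcnb, a ficolin that binds microbial sugars, at 122 CPM. Ighm, the heavy chain of immunoglobulin M, stood at 171 CPM with UMIs in 65 cells, whereas 0 cells had 3 B cell genes. Clec4a2 and Ms4a6b, surface proteins of myeloid cells, had UMIs in 63 cells each. The Rgs1 ratio rests on 3 UMIs in other somatic cells and was 9.36 when 4 rule genes were asked for. Rgs1 missed the rule without the E13.5 library, Clec4a2, Stfa1, Stfa3 and BC100530 without E11.5, and Stfa1 also without E14.5.

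Growth factors for these cells were read in the other somatic cells. Kitl, the ligand of Kit, stood at 143, 276, 169 and 202 CPM over the stages and was the only colony stimulating factor ligand past the minimums, lower in immune cells. Csf1 stood at 0.648, 0.693, 0.863 and 1.49 CPM and Il34 at 1.88, 1.37, 2.48 and 3.75, both ligands of Csf1r. Cx3cl1, the ligand of Cx3cr1, stood at 8.55, 6.71, 5.93 and 4.08 CPM. These are levels per library, and the spread between embryos is not known.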

How the data were processed

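Droplet libraries (3′ kit) of XX gonads were aligned to mm10 with Cell Ranger 2.2.0, per the submitters' processing notes. The deposited table holds 19321 genes in 19387 cells as natural log values, ln(1 + UMIs per 10000 UMIs of the cell), read from the values since nothing in the labels states it. Counts had been planned for. Whole UMIs were recovered from the steps of these values (100% of 69792436 values above 0 were whole within 1e-06) and summed over cells. Sums carry exact Poisson 95% intervals, ratios exact binomial ones and shares exact Clopper-Pearson ones, all for counting error only, and UMIs of 1 cell share their source.

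Cells over 20% mitochondrial UMIs and doublets called by Scrublet in scanpy 1.11.5 within each library (expected rate 0.06) were left out. Python 3.11.15, numpy 2.4.6, scipy 1.17.1 and pandas 2.3.3 were used. The rule of size was tested on simulated counts of 19321 genes in each of 3 comparisons. There 200 genes carried an 8-fold difference: it found 100% of them and no other gene. The simulated cells were Poisson draws from a shared profile, with no spread between cells beyond depth. The changed genes were well expressed, their difference exceeded the 4-fold limit, and only a subset of other somatic cells was used. This outcome was near fixed in advance and does not show how the rule behaves in cells as mixed as these. Named genes were list members with at least 30 UMIs over the immune cells, the 12 largest ratios each way for C1qa-only against S100a8-only cells, the 10 largest in no list for immune cells, and the 10 largest each way between stages, of which 1 is not reported here. Those with few UMIs are named for being at or near 0, as seen in the values. Members and the 39 gene lists were chosen with earlier results of these data known. Of 318 list genes, 239 had a promoter entry in RefSeq. Alternatives covered the ratio, the minimums, the scale, the cells kept and each library left out.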

Additional observations from a re-analysis of the deposited data

How the results depend on the processing

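The shares of immune cells at each stage stayed within their reported intervals under each of 32 alternatives. With a ratio of 2 in place of 4, 476 genes in place of 269 differed between immune and other somatic cells, 479 in place of 231 between C1qa-only and S100a8-only cells, and 140 in place of 28 between E14.5 and E11.5 in C1qa-only cells. With no CPM minimum the first 2 counts were 2366 and 454. With a minimum of 100 UMIs the third was 8. Under the other settings these counts ranged from 265 to 287, from 184 to 271 and from 22 to 33. Leaving out each library in turn gave 240 to 275 genes for the first and 207 to 245 for the second. No log2 ratio of the named comparisons changed sign, and sign was checked for no other result. The order of summed levels could turn: with the common minimum the G2 and mitosis list in C1qa-only cells was higher at E13.5 than at E14.5 (1492 and 1147 CPM). Of 58 named comparisons 28 passed under every alternative run for them and 30 missed it under at least 1, the cause of which was not tested. All 9 genes higher at E14.5 were among the 30. With a common minimum of 9791 UMIs, 32 genes differed between the stages, 1 higher and 31 lower, with 11 in common with the reported 28, and with the mean of cells 14 were higher and 19 lower. With 3 UMIs asked of a positive cell, 4 were higher and 18 lower.

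Leaving out cells with gonadal somatic genes, the left-out libraries, the mast cell settings and, for the comparison of stages only, the common minimum and the erythroid cells were chosen after seeing the data. No alternative was run for S100a8-only cells across stages, which numbered 4, 3, 3 and 7. No paired analysis was possible because there was 1 library per stage.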
